A study of Mus musculus with 12 samples.

Results

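Glycolysis and the response to low oxygen were described through 36 listed mouse genes in whole E8.5 embryos. These were 4 glucose and lactate transporters, 16 glycolytic enzymes and 3 regulators of glycolytic flux (23 genes on the glycolysis side), and 4 oxygen-sensing genes and 9 other hypoxia targets (13 genes on the hypoxia side). The genes were found by matching the transcript identifiers of the count table, 22467 rows in all, to their symbols in the GENCODE M21 annotation of GRCm38. The 36 symbols held 37 rows. A second Aldoa row, from another gene model on chromosome 7, had 2 to 9 footprint counts per library and did not pass the filter on low counts. The other 36 rows, 1 per symbol, were among the 12576 transcripts that passed it, above 0.75 CPM (a count scaled to the size of its library) in at least 3 footprint libraries.

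The embryos were 3 Rpl10a +/+ (wild type, WT) and 3 Rpl10a LOF/LOF, homozygous for a loss-of-function allele of Rpl10a, which encodes the large-subunit ribosomal protein RPL10A/uL1. The allele is constitutive, present in every cell, and adds an extension to the N-terminus of the protein; no other allele was named for either group. Embryos of both groups were dissected and lysed in the presence of cycloheximide, which holds ribosomes on the mRNA. Each lysate, from 1 embryo and not pooled, gave 1 library of ribosome-protected fragments (RPF) and 1 of rRNA-depleted total RNA, so the 12 libraries come from 6 embryos. RPF reads were counted over the coding sequence and RNA reads over the whole transcript. Libraries held 7041357 to 10863499 RPF counts and 9132521 to 26561843 RNA counts, with WT replicate 1 and LOF/LOF replicate 3 the shallowest in RNA. Rpl10a itself, checked first, had 1562, 1611 and 1679 RPF CPM in WT and 1125, 1040 and 939.7 in LOF/LOF embryos (edgeR FDR = 0.00689), and its RNA log2 fold change was -0.23 (edgeR FDR = 0.0678). Summed RNA of 4 genes on the Y chromosome (Uty, Kdm5d, Ddx3y and Eif2s3y) was 177 to 189 CPM in WT and 173 CPM in LOF/LOF replicate 2, but 8.72 and 2.57 CPM in LOF/LOF replicates 1 and 3. Y-linked expression therefore differs between the groups, as does the likely sex of the embryos, and Pgk1 and Pdk3 lie on the X chromosome. Of the 10 markers on each list, every library held counts for all neural plate, paraxial mesoderm, cardiac and endothelial markers, and for at least 8 trophoblast markers.

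Glycolysis converts glucose to pyruvate in the cytosol, and lactate dehydrogenase and the monocarboxylate carriers let the product leave the cell as lactate. Where oxygen is low, the hypoxia-inducible factor, a dimer of HIF1A and ARNT, escapes hydroxylation by the EGLN prolyl hydroxylases and raises transcription of most of these genes, among them its own inhibitors. Early mouse embryos develop before a full circulation and rely on glucose, and high aerobic glycolysis is known in the tailbud and presomitic mesoderm.

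The factor binds a 5-letter core, ACGTG or GCGTG, read on either strand. The 250 bases upstream of the nearest RefSeq start (GRCm38.p6) were taken for the 34 members that matched the promoter table. ACGTG was in 18 of them (52.9%), GCGTG in 20 (58.8%) and either in 28 (82.4%). Over all 32817 RefSeq starts the shares were 16.6%, 28.1% and 38.6%, and over the 9873 genes of tested transcripts with a promoter they were 21.7%, 46.6% and 57.5%. The palindrome CACGTG counts as a match on each strand. The windows of the members differ in base composition, from 36.4% GC at Pfkm to 86.0% at Egln1, and a match to so short a word is a description of the letters and not a bound site. The nearest RefSeq start lay 4329, 1021, 694 and 566 nucleotides from the start of the counted transcript for Ldha, Vegfa, Gapdh and Higd1a. The upstream sequences of 3 members whose RNA was lower in LOF/LOF embryos are shown with the cores they hold. Beside them are the sequences of Hk2 and Pgk1, which hold ACGTG but not GCGTG and whose RNA did not pass the test. They are written 5′ to 3′ on the strand of the gene with the cores in capitals, and bases that lie in an annotated exon are left out.

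Slc16a1, chr3:104638414-104638663, plus strand: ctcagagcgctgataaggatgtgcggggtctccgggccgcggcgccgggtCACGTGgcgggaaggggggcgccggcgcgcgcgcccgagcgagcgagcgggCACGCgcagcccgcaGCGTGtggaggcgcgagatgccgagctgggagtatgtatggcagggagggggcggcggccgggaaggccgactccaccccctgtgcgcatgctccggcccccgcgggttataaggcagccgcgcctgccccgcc
Bnip3, chr7:138909520-138909756, minus strand: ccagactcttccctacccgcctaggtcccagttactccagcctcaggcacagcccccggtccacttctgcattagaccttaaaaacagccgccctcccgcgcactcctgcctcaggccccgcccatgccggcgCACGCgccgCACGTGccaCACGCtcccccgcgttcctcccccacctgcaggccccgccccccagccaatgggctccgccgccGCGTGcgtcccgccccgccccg
Egln1, chr8:124949325-124949504, minus strand: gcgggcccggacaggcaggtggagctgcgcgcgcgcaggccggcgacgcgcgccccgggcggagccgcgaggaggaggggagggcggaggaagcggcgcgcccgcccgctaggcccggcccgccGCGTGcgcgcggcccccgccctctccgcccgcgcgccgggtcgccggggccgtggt
Hk2, chr6:82774455-82774704, minus strand: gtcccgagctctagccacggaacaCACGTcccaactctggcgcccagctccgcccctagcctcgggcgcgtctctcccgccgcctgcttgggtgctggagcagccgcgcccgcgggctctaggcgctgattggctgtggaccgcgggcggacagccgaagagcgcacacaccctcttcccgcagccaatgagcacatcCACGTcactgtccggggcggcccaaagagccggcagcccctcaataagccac
Pgk1, chrX:106186850-106187099, plus strand: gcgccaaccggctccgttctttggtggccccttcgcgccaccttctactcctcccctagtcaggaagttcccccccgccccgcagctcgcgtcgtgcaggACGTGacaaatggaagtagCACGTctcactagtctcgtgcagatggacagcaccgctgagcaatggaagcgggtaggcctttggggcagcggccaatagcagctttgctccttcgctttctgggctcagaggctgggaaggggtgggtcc

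Slc16a1, 4 matches, and Bnip3, 5 matches, both hold CACGTG with copies of GCGTG nearby. The ACGTG core of the Egln1 window lies in the 70 bases left out here. Hk2 and Pgk1 hold 2 copies of ACGTG each. Ero1l, RefSeq name Ero1a, had 3 matches in a window that lies mostly in an exon of another of its transcripts. Gpi1, Hk1, Aldoa, Pkm, Tpi1 and Vegfa had no match in these 250 bases.

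The RNA comparison asked which of the genes differed in mRNA abundance. Slc16a1, Egln1, Bnip3 and Ero1l fell in LOF/LOF embryos, and no member rose. They are 4 of 36, or 11.1%, at an edgeR FDR below 0.1, where 5.02% of all tested transcripts were called and 3.25% were called lower. On the glycolysis side 1 of 23 was called (4.35%), and on the hypoxia side 3 of 13 (23.1%). At an unadjusted p below 0.05, 9 members were lower, against 9.6% of all tested transcripts lower, and 1, Pfkfb3, was higher, against 7.44%. The median RNA log2 fold change was -0.033 over the 36 members, -0.030 on the glycolysis side and -0.11 on the hypoxia side, against -0.0018 over all tested transcripts. In 9 of 36 members every LOF/LOF embryo lay below every WT embryo in RNA, which 12.6% of all tested transcripts did, and in 1 every LOF/LOF embryo lay above, against 10.2%. The 9 were Slc2a3, Slc16a1, Pfkp, Aldoc, Tpi1, Egln1, Bnip3, Higd1a and Ero1l, and the 1 was Egln3. All 4 calls were lost without WT replicate 1 or without WT replicate 2, and with the level of Y-linked transcripts as a term of the fit, each leaving 0 members called in RNA. Those 3 fits called 1.1%, 3.59% and 0.31% of all tested transcripts. With the Y-linked term the RNA log2 fold changes of Slc16a1, Egln1, Bnip3 and Ero1l were -0.19, -0.18, -0.35 and -0.15. In the main fit they were -0.44, -0.18, -0.29 and -0.21. Only LOF/LOF replicates 1 and 3 had little Y-linked RNA, so the fit with this term compares genotypes mainly through LOF/LOF replicate 2.

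**Figure D1:**
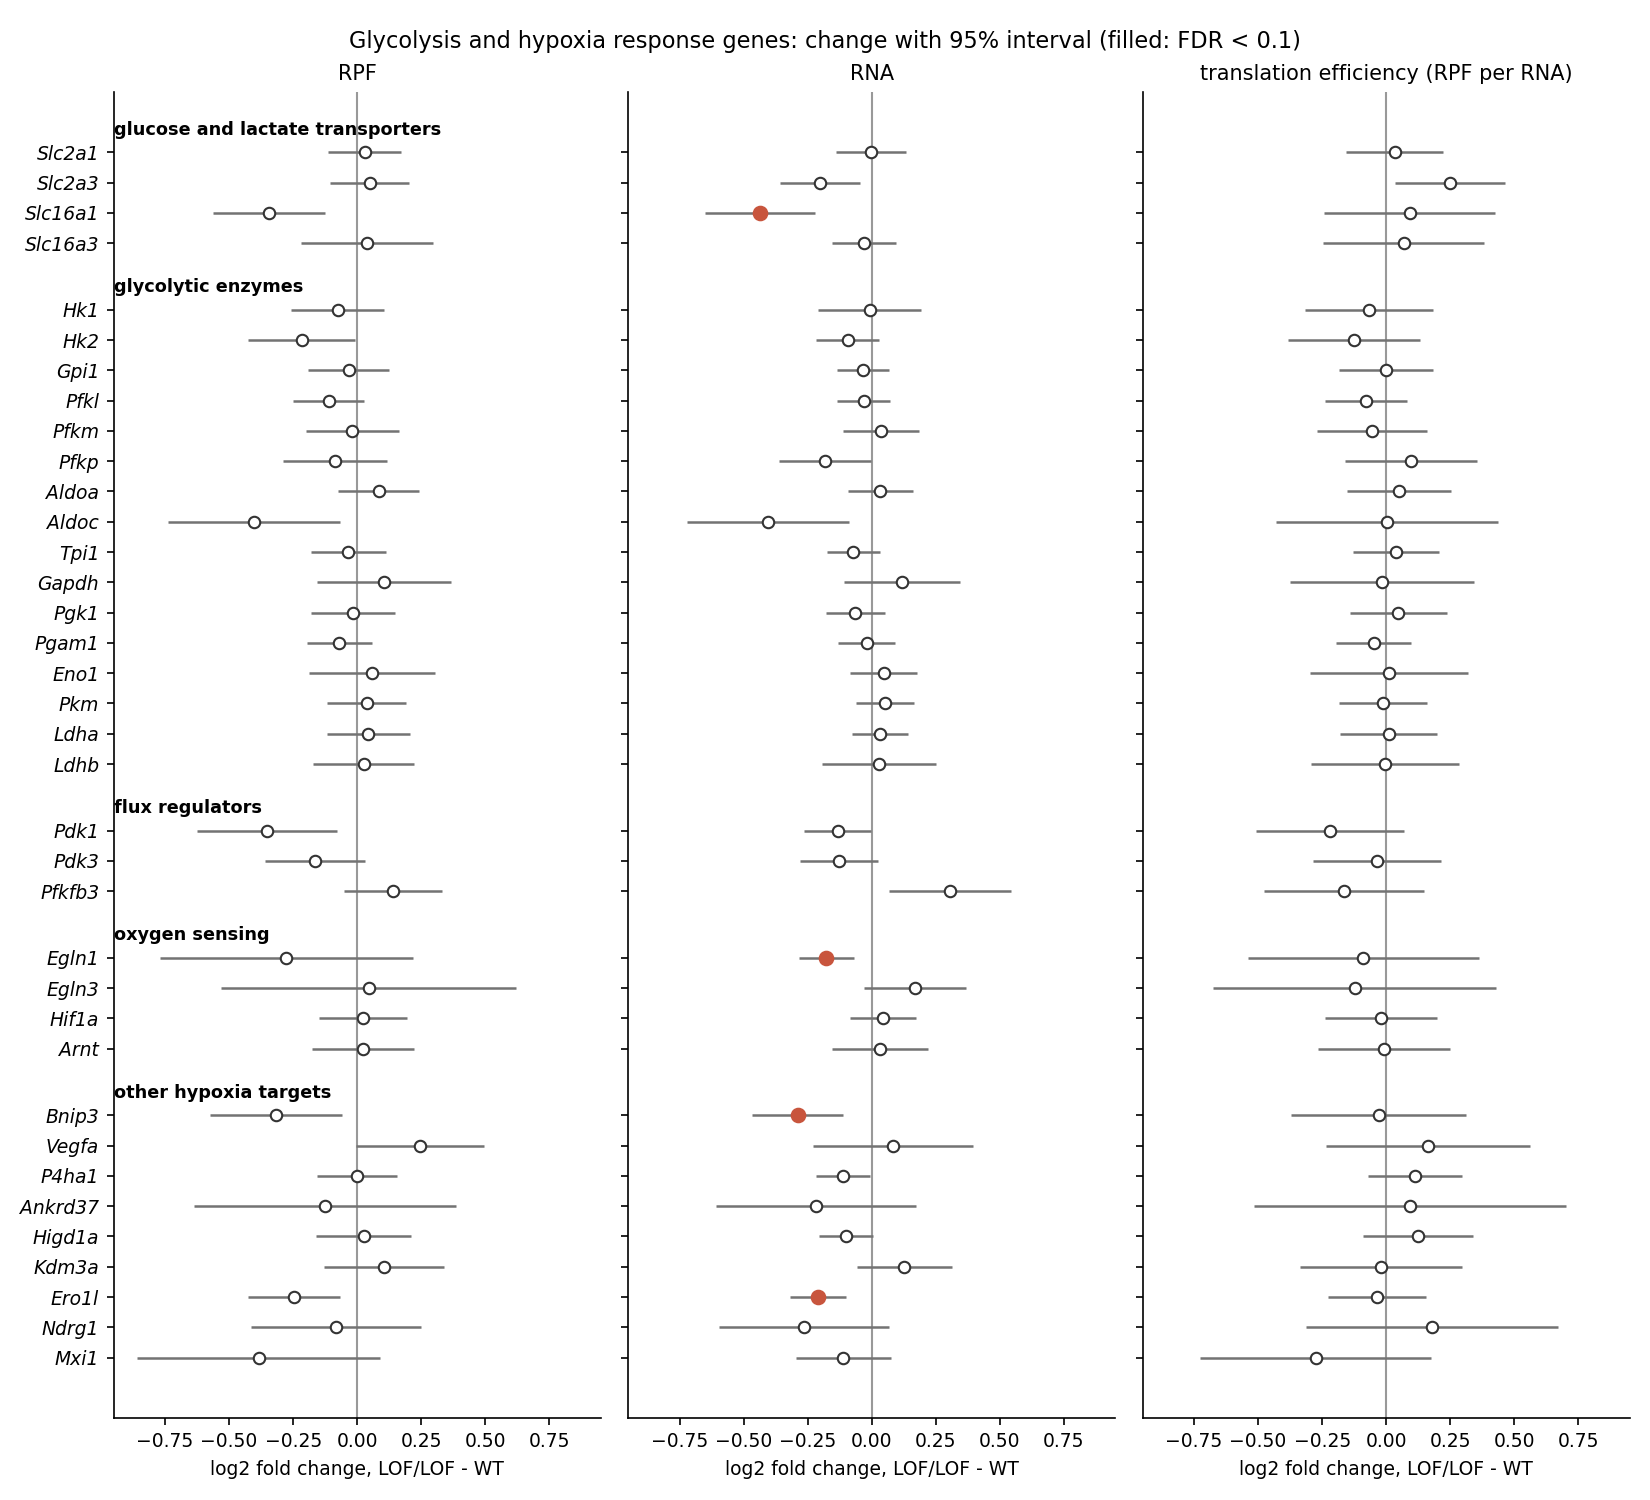
Log2 fold change (LOF/LOF minus WT) of each of the 36 members in RPF, RNA and translation efficiency, with the 95% interval of the edgeR fit, grouped by role; filled points have an FDR below 0.1. The filled points are Slc16a1, Egln1, Bnip3 and Ero1l in RNA, and most glycolytic enzymes lie close to 0 in every panel.

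The RPF comparison asked the same of ribosome occupancy. In RPF, 0 of 36 members passed an edgeR FDR of 0.1, where 2.19% of all tested transcripts did. At an unadjusted p below 0.05 there were 6 members, all lower: Slc16a1, Hk2, Aldoc, Pdk1, Bnip3 and Ero1l, against 6.61% of all tested transcripts lower at that threshold. DESeq2 called 1 member, Slc16a1, where it called 2.12% of all tested transcripts, and limma-voom called 0. With surrogate variables limma-voom called 6, the same genes as at the unadjusted threshold, where it called 10.4% of all tested transcripts. Every LOF/LOF embryo lay below every WT embryo in 6 of 36 members, Slc16a1, Pfkl, Aldoc, Pdk1, Bnip3 and Ero1l, against 9.45% of all tested transcripts, and above in 1, Vegfa, against 9.92%. The median RPF log2 fold change was -0.018 over the members and 0.0036 over all tested transcripts. Without LOF/LOF replicate 2, 5 members were called in RPF, Slc16a1, Pdk1, Pdk3 and Egln1 lower and Vegfa higher, in a fit that called 11.5% of all tested transcripts. Without LOF/LOF replicate 1, 3 were called, Hk2, Aldoc and Bnip3, all lower, in a fit that called 1.52%.

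Translation efficiency, the genotype difference in RPF relative to RNA, was tested as an interaction in 1 edgeR model of all 12 libraries. None of the 36 members passed (FDR below 0.1, as in 0.0% of all tested transcripts), and DESeq2, limma-voom and limma-voom with surrogate variables also called 0. At an unadjusted p below 0.05 there was 1 member, Slc2a3, against 4.44% of all tested transcripts. For 29 of 36 members the 95% interval of the difference lay within 0.5 of 0 on the log2 scale, so differences above that size were outside the interval for these. The 7 others, Pdk1, Egln1, Egln3, Vegfa, Ankrd37, Ndrg1 and Mxi1, had wider intervals.

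Among the transporters, Slc16a1 (MCT1, chr3:104638668-104658462, plus strand), a proton-linked lactate and pyruvate carrier, had the largest called difference of the 36. Its RNA was 942, 898 and 884 CPM in WT replicates 1 to 3 and 647, 791 and 575 CPM in LOF/LOF replicates 1 to 3. All LOF/LOF embryos were below all WT embryos, with LOF/LOF replicate 2 nearest to WT. The RNA log2 fold change was -0.44 (SE 0.097, edgeR FDR = 0.0464). Its RPF was 866, 772 and 706 CPM in WT and 589.7, 705 and 552 CPM in LOF/LOF embryos. The groups did not overlap in RPF either, and the log2 fold change of -0.34 (SE 0.099) did not pass the adjusted threshold (edgeR FDR = 0.149). In a whole embryo, fewer cells that express a gene and less RNA per cell cannot be told apart. The RNA call was lost without WT replicate 1, WT replicate 2 or LOF/LOF replicate 1 (edgeR FDR 0.174, 0.103 and 0.104). Fitting the level of Y-linked transcripts as a term gave log2 fold changes of -0.19 in RNA (edgeR FDR = 0.514) and -0.15 in RPF (edgeR FDR = 0.809). That level is low in LOF/LOF replicates 1 and 3 only, so the genotype difference in this fit rests mainly on LOF/LOF replicate 2.

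Markers of the visceral endoderm, the absorptive epithelium around the early embryo, were lower in LOF/LOF embryos, as Slc16a1 was. Of 20 such markers 19 were tested, all 19 were called lower in RNA and 16 in RPF. Of all tested transcripts 5.02% were called in RNA and 2.19% in RPF. Their summed RNA was 4909, 4457 and 3927 CPM in WT replicates 1 to 3 and 1617, 2882 and 1371 CPM in LOF/LOF replicates 1 to 3. No marker was at 0 in any RNA library, and Apoc2 alone was at 0 in every RPF library. Slc16a1 put the 6 embryos in the same order as this sum in both RNA and RPF. In RNA, 3 of the 36 members did so, Slc2a3, Slc16a1 and Ero1l, as did 1.38% of all tested transcripts. In RPF only Slc16a1 did among the members, and 0.899% of all tested transcripts did. These members and the sum had every LOF/LOF embryo below every WT embryo, which fixes part of the order. Of all tested transcripts 1588 were separated in this way in RNA, and 173 of them held the order. In RPF these counts were 1189 and 113. The marker lists were chosen with earlier results of these data known. Summed primitive erythroid markers in RNA ran from 435 to 1788 CPM in WT and from 1619 to 2695 CPM in LOF/LOF embryos, and cardiac markers from 742 to 806 and from 921 to 971 CPM. In RPF the erythroid sum ran from 855 to 2877 CPM in WT and from 3592 to 5893 CPM in LOF/LOF embryos. Of 14 erythroid markers 3 were called higher in RNA and 7 in RPF, and of 10 cardiac markers 6 in each. Of 10 paraxial mesoderm markers 2 were called lower in RPF, and of 10 neural plate markers 1 was called lower in RNA. Paraxial mesoderm markers ran from 246 to 259 CPM in WT and 222 to 245 CPM in LOF/LOF embryos, neural plate markers from 348 to 360 and 295 to 354 CPM, endothelial markers from 418 to 422 and 382 to 532 CPM, and trophoblast markers from 161 to 166 and 144 to 184 CPM. The order of the embryos was compared with the endoderm sum only, and the part of these cell types in the values of the members was not tested.

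Slc2a3 (GLUT3), the high-affinity neuronal-type glucose transporter, was 2706, 2550 and 2504 CPM in WT and 2175, 2497 and 2078 CPM in LOF/LOF RNA. LOF/LOF replicate 2 lay just below the lowest WT embryo, and the difference of -0.20 (SE 0.070) missed the threshold (edgeR FDR = 0.181). It was called by DESeq2 at -0.20 (adjusted p = 0.0580) and by edgeR without LOF/LOF replicate 2 at -0.28 (FDR = 0.0349), and was -0.049 with the Y-linked term (edgeR FDR = 0.925). Its RPF, 3387, 3315 and 2904 CPM in WT and 3375, 3371 and 3193 CPM in LOF/LOF embryos, overlapped between groups. The translation efficiency difference was 0.25 with a 95% interval from 0.035 to 0.47, and did not pass (edgeR FDR = 1.00). Slc2a1 (GLUT1), the basal glucose transporter, was 1163, 1146 and 1096 CPM in WT and 1032, 1180 and 1184 CPM in LOF/LOF RNA, with overlapping groups. Its 95% interval ran from -0.14 to 0.13 in RNA and from -0.11 to 0.17 in RPF. Slc16a3 (MCT4), the lactate exporter of glycolytic cells, had an RNA difference of -0.030 (95% interval -0.15 to 0.095) beside the lower Slc16a1.

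None of the 16 glycolytic enzymes passed the threshold in RPF, RNA or translation efficiency. For 13 of them no unadjusted p was below 0.05: Hk1, Gpi1, Pfkl, Pfkm, Aldoa, Tpi1, Gapdh, Pgk1, Pgam1, Eno1, Pkm, Ldha and Ldhb. Their log2 fold changes ran from -0.11 to 0.10 in RPF and from -0.072 to 0.12 in RNA, and their 95% intervals reached from -0.26 to 0.37 and from -0.21 to 0.34. The enzymes together took 1.86% to 1.98% of all RPF counts in WT and 1.82% to 2.03% in LOF/LOF embryos. Of all RNA counts they took 1.02% to 1.04% in WT and 0.982% to 1.05% in LOF/LOF embryos. The ranges overlap in both.

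Pkm, the last enzyme of the pathway, which makes pyruvate, was 7110, 7402 and 6855 CPM in WT and 7946, 6790 and 7196 CPM in LOF/LOF RPF libraries. LOF/LOF replicate 1 was the highest and LOF/LOF replicate 2 the lowest embryo, so the groups overlapped, and the log2 fold change was 0.038 (SE 0.070). In RNA Pkm was 3657, 3543 and 3674 CPM in WT and 3775, 3590 and 3893 CPM in LOF/LOF embryos. Ldha, which reduces pyruvate to lactate, was 1871, 2033 and 1914 CPM in WT and 2190, 1965 and 1837 CPM in LOF/LOF RPF libraries, again with overlap. Its RNA was 587, 575 and 599.9 CPM in WT and 589, 586 and 627 CPM in LOF/LOF embryos, a log2 fold change of 0.032 (SE 0.048). The Ldha transcript counted is a short model with a coding sequence of 710 nucleotides.

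Gapdh, which oxidises glyceraldehyde 3-phosphate, was 47.0, 49.0 and 54.6 CPM in WT and 64.7, 51.0 and 47.0 CPM in LOF/LOF RPF libraries. Its RNA was 17.0, 13.3 and 14.5 CPM in WT and 15.7, 15.7 and 16.5 CPM in LOF/LOF embryos, and the groups overlapped in both. These levels are uncertain, because 91.3% of the 30-base words of its coding sequence also occur in other transcripts of the table, of 11 other transcripts in all, with Gm10358 the closest. The same holds for Eno1, with 86.6% shared, mostly with Eno1b, and in part for Aldoa (26.7%) and Ldha (7.57%). How reads that match several transcripts were assigned is not given in the sources used here.

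Hk2, the inducible hexokinase that traps glucose as its phosphate, was 447, 446 and 419 CPM in WT and 437, 325 and 368 CPM in LOF/LOF RPF libraries. LOF/LOF replicate 1 lay within the WT range and the other LOF/LOF embryos below it, with a log2 fold change of -0.22 (SE 0.095, edgeR FDR = 0.342). Its RNA was 302, 332 and 292 CPM in WT and 295, 287 and 285 CPM in LOF/LOF embryos, which overlapped. Its RPF value was -0.34 without LOF/LOF replicate 1, which was called (edgeR FDR = 0.0722), and -0.12 without LOF/LOF replicate 2 (edgeR FDR = 0.384).

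Aldoc, the aldolase of brain, was a minor isoform beside Aldoa. It had 15.4, 14.4 and 15.2 RPF CPM in WT and 14.3, 9.54 and 10.7 in LOF/LOF embryos. In RNA it had 9.14, 10.7 and 8.05 CPM in WT and 7.85, 6.90 and 6.11 in LOF/LOF embryos. The groups were separate in both, by a margin of less than 1 CPM, and the log2 fold changes were -0.40 (SE 0.15) in RPF and -0.41 (SE 0.14) in RNA (edgeR FDR = 0.275 and 0.180). Without WT replicate 2 the RNA value was -0.27 (edgeR FDR = 0.429). Pfkp, the platelet-type phosphofructokinase, was 31.9, 29.9 and 27.7 CPM in WT and 25.8, 25.3 and 27.6 CPM in LOF/LOF RNA. The embryos did not overlap, and the log2 fold change was -0.18 (SE 0.081, edgeR FDR = 0.284). In RPF the Pfkp interval ran from -0.29 to 0.12.

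The 3 flux regulators act on the conversion of pyruvate to acetyl-CoA or on the rate of phosphofructokinase. Pdk1, a kinase that switches off pyruvate dehydrogenase and a known hypoxia target, had 31.3, 34.8 and 30.3 RPF CPM in WT and 22.9, 29.9 and 22.5 in LOF/LOF embryos. LOF/LOF replicate 2 was again nearest to WT, and the log2 fold change was -0.35 (SE 0.12, edgeR FDR = 0.237). With the Y-linked term the RPF value was -0.13 (edgeR FDR = 0.888). Its RNA was 154, 159.6 and 148 CPM in WT and 152, 135 and 133 CPM in LOF/LOF embryos, which overlapped through LOF/LOF replicate 1. The RNA log2 fold change was -0.13 (SE 0.059), and -0.20 without LOF/LOF replicate 1, which was called (edgeR FDR = 0.0963). Pdk3, a second pyruvate dehydrogenase kinase, had log2 fold changes of -0.17 in RPF and -0.13 in RNA with overlapping groups. Without LOF/LOF replicate 2 its RPF value was -0.25 (edgeR FDR = 0.0854).

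Pfkfb3, which makes a sugar bisphosphate that activates phosphofructokinase, was the 1 member with an unadjusted p below 0.05 and a higher RNA. Its RNA was 47.7, 53.4 and 40.6 CPM in WT and 52.7, 65.2 and 57.2 CPM in LOF/LOF embryos. LOF/LOF replicate 1 lay inside the WT range, and the log2 fold change was 0.31 (SE 0.11, edgeR FDR = 0.181). DESeq2 called it at 0.31 (DESeq2 adjusted p = 0.0942), and without WT replicate 3 it was 0.20 (edgeR FDR = 0.407). Its RPF was 51.2, 55.0 and 48.4 CPM in WT and 54.2, 54.6 and 61.0 CPM in LOF/LOF embryos, also with overlap.

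In oxygen sensing, Egln1 (PHD2, chr8:124908587-124949324, minus strand), the main prolyl hydroxylase that marks HIF1A for destruction, fell in RNA. It had 136, 140.4 and 128 CPM in WT and 118, 119 and 120.1 CPM in LOF/LOF embryos. The LOF/LOF embryos lay close together and below every WT embryo, with a log2 fold change of -0.18 (SE 0.048, edgeR FDR = 0.0880). In RPF, 10.4, 13.7 and 11.9 CPM in WT and 6.41, 13.6 and 9.23 CPM in LOF/LOF embryos overlapped widely, and the interval ran from -0.77 to 0.22. The RPF log2 fold change was -0.28, and -0.57 without LOF/LOF replicate 2, which was called (edgeR FDR = 0.0954). It was -0.080 without LOF/LOF replicate 1 (edgeR FDR = 0.897) and -0.18 without WT replicate 2 (edgeR FDR = 0.897). The RNA call held in 3 of 14 alternatives and was lost without any 1 embryo other than WT replicate 3, while its direction held in all 14.

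Egln3 (PHD3), the hydroxylase most strongly induced by hypoxia, had every LOF/LOF embryo above every WT embryo in RNA, at a log2 fold change of 0.17 (95% interval -0.031 to 0.37) that did not pass. Hif1a, the oxygen-regulated subunit of the factor, was 344, 337 and 349 CPM in WT and 368, 369 and 324 CPM in LOF/LOF RNA, so both the lowest and the highest embryos were LOF/LOF. Its RPF was 326, 344 and 353 CPM in WT and 315, 383 and 341 CPM in LOF/LOF embryos, with the same overlap. The 95% interval of Hif1a was -0.085 to 0.17 in RNA and -0.15 to 0.19 in RPF. For Arnt, its constant partner, it was -0.16 to 0.22 in RNA. HIF1A is mainly controlled through protein stability, which these libraries do not measure.

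Of the 9 other hypoxia targets, Bnip3 and Ero1l fell in RNA and none rose. Bnip3 (chr7:138890836-138909506, minus strand), a mitochondrial outer-membrane protein that drives mitophagy, had 179, 176 and 167 RNA CPM in WT and 163, 132 and 130.5 in LOF/LOF embryos. LOF/LOF replicate 1 lay just below the WT range and the other LOF/LOF embryos well below, with a log2 fold change of -0.29 (SE 0.080, edgeR FDR = 0.0972). Its RPF was 155, 147 and 146 CPM in WT and 145, 119 and 97.6 CPM in LOF/LOF embryos, in the same order of LOF/LOF embryos, at -0.32 (SE 0.12, edgeR FDR = 0.261). The RPF value was -0.47 without LOF/LOF replicate 1 (edgeR FDR = 0.0633) and -0.18 without LOF/LOF replicate 3 (edgeR FDR = 0.550). The Bnip3 call in RNA held in 5 of 14 alternatives and was lost without any 1 embryo other than LOF/LOF replicate 1, which made it stronger at -0.41 (edgeR FDR = 0.0102).

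Ero1l (chr14:45283087-45318572, minus strand), the oxidase that supplies disulphide bonds in the endoplasmic reticulum, had 124, 121 and 120.0 RNA CPM in WT and 108, 108 and 98.5 in LOF/LOF embryos. The groups were separate, with a spread within each group smaller than the gap between them, and the log2 fold change was -0.21 (SE 0.049, edgeR FDR = 0.0573). Its RPF was 56.2, 63.6 and 62.1 CPM in WT and 49.3, 50.9 and 52.9 CPM in LOF/LOF embryos, again without overlap, at -0.25 (SE 0.082, edgeR FDR = 0.210). The RNA call held in 9 of 14 alternatives and was lost without any WT embryo or without LOF/LOF replicate 3 (edgeR FDR 0.104 to 0.213).

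**Figure D2:**
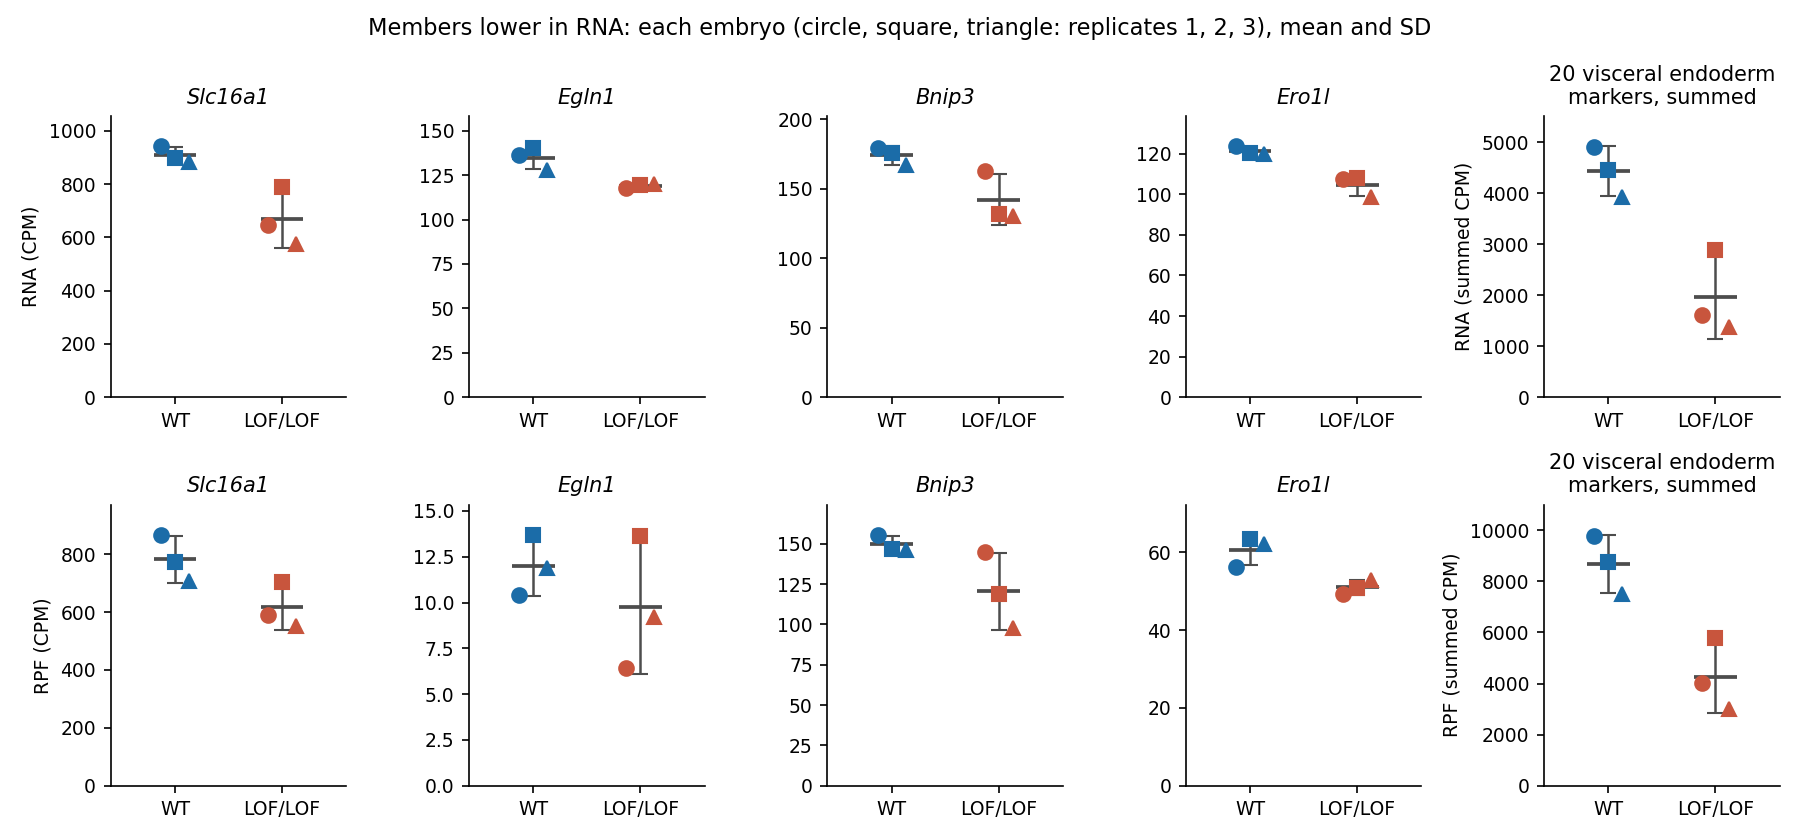
RNA (top) and RPF (bottom) in CPM of Slc16a1, Egln1, Bnip3 and Ero1l in each of the 6 embryos, and the summed CPM of 20 visceral endoderm markers, with mean and SD (n = 3 per genotype). All 4 genes are lower in every LOF/LOF embryo in RNA, Egln1 overlaps in RPF, and LOF/LOF replicate 2 (square) is nearest to WT for Slc16a1 and for the endoderm markers but not for Bnip3.

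Vegfa, the angiogenic growth factor, was the 1 member with every LOF/LOF embryo above WT in RPF. It had 17.1, 17.0 and 16.9 CPM in WT and 21.4, 17.8 and 21.2 CPM in LOF/LOF RPF libraries. The WT embryos were nearly equal and LOF/LOF replicate 2 lay closest to them, and the log2 fold change of 0.25 (95% interval -0.0052 to 0.50) did not pass (edgeR FDR = 0.377). Without that replicate it was 0.33 (edgeR FDR = 0.0978). The RPF value was called in no other alternative, the fit with the Y-linked term among them. Its RNA was 12.4, 11.9 and 10.7 CPM in WT and 10.7, 11.3 and 15.5 CPM in LOF/LOF embryos, with LOF/LOF replicate 3 alone above the rest. The Vegfa transcript counted is a model of 654 nucleotides that holds little beyond its coding sequence.

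P4ha1, a collagen prolyl hydroxylase subunit, was 148, 155 and 154 CPM in WT and 138, 139 and 148 CPM in LOF/LOF RNA, which met at 148 CPM. The log2 fold change was -0.11 (SE 0.047, edgeR FDR = 0.258). In RPF P4ha1 was 228, 248 and 225 CPM in WT and 217, 239.7 and 243 CPM in LOF/LOF embryos, and the interval was -0.16 to 0.16. Higd1a, a small mitochondrial protein, lay lower in RNA in every LOF/LOF embryo at -0.10 (95% interval -0.20 to 0.0042), without a call. Kdm3a, a histone H3 lysine 9 demethylase, Ndrg1, a stress-responsive cytoplasmic protein, Mxi1, a MYC antagonist, and Ankrd37, a small ankyrin-repeat protein, had RNA differences of 0.13, -0.27, -0.11 and -0.22. Without LOF/LOF replicate 3 the Ndrg1 value was -0.44, which was called (edgeR FDR = 0.0940), and without LOF/LOF replicate 1 it was -0.15 (edgeR FDR = 0.668). Their groups overlapped in RNA and in RPF, and Ankrd37 and Mxi1 had under 8 RPF CPM in every embryo.

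Levels of different genes were compared per length, as CPM per kilobase of counted coding sequence in RPF and per kilobase of transcript in RNA. In WT embryos Pkm had the highest RPF level of the members, 4646 ± 179 (SD, n = 3), followed by Ldha at 2983 ± 129, Pgk1 at 2903 ± 101 and Pgam1 at 2601 ± 68.9. The levels of Gapdh and Eno1 are uncertain for the shared sequence given above, so their place in this order is not known. Ldha rests on the short model named above. Ldha and Pgk1 differed by less than their spread. Slc2a3, at 2256 ± 184, was above Slc2a1, at 1528 ± 92.9, and Slc2a1 and Tpi1 (1531 ± 39.0) differed by less than their spread. Of the 23 genes on the glycolysis side, 14 lay above the 90th percentile of all tested transcripts in RPF per kilobase, and of the 13 on the hypoxia side 4 did. The lowest levels were Egln3 (6.61 ± 1.70), Ankrd37 (7.38 ± 1.61) and Egln1 (10.5 ± 1.44), where the median of all tested transcripts was 13.9.

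The ratio of these levels gives footprints per RNA, described here in WT embryos. Its log2 median over tested transcripts was 0.75, with quartiles of -0.022 and 1.39. All 16 glycolytic enzymes and all 4 transporters lay above that median, the enzymes from 0.99 (Pfkl) to 2.21 (Ldha). Hypoxia-side genes spread more widely, with 8 above the median and 5 below. Higd1a was at 3.76 ± 0.059 (SD, n = 3), higher than 99.6% of tested transcripts, and Egln1 at -1.84 ± 0.19, higher than only 2.26%. Pdk1, at -0.20 ± 0.053, was below its paralog Pdk3, at 0.51 ± 0.090. In LOF/LOF embryos Higd1a was at 3.88 ± 0.20 and Egln1 at -2.02 ± 0.54. The ratio rests on 1 annotated transcript model per gene, and RNA reads over its untranslated parts enter it.

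**Figure D3:**
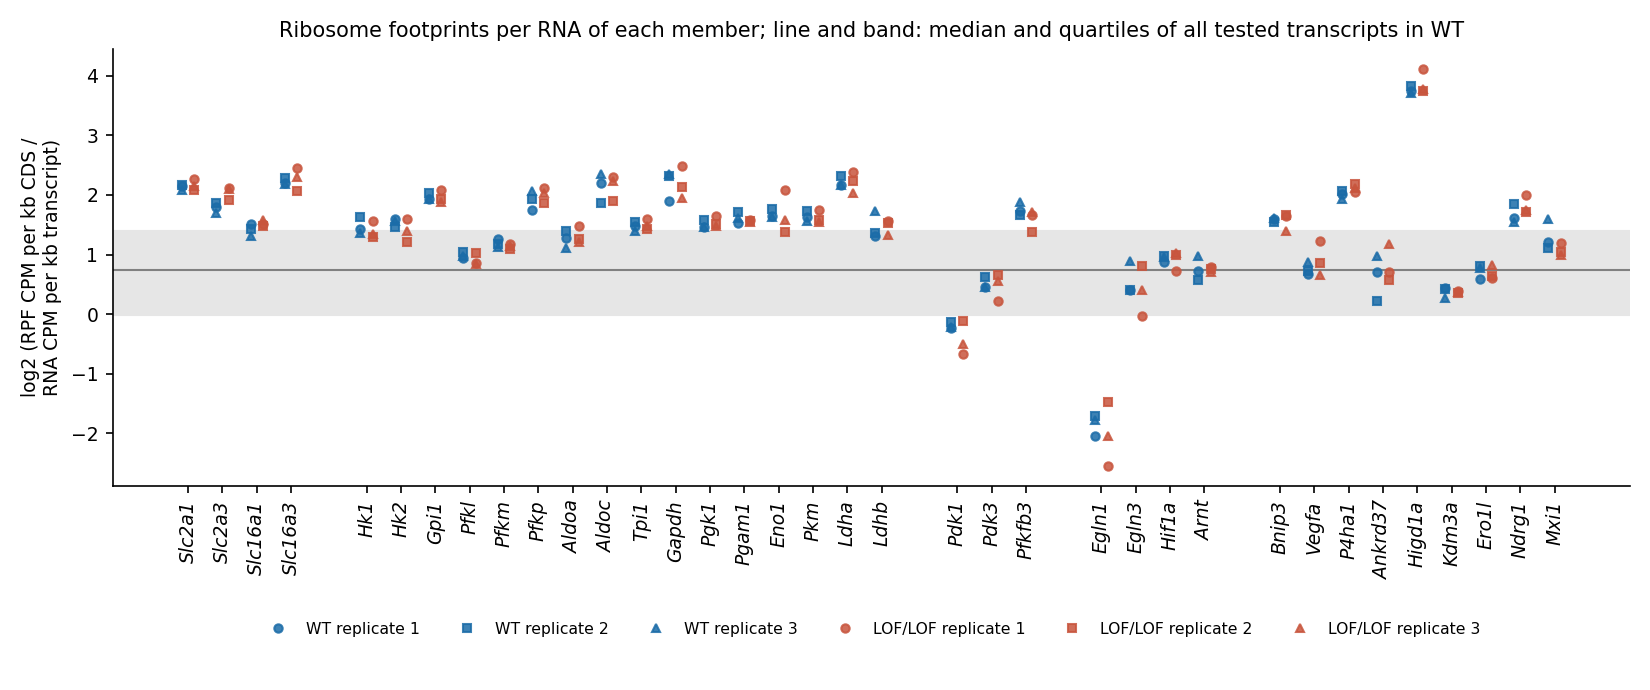
Log2 ratio of RPF CPM per kilobase of coding sequence to RNA CPM per kilobase of transcript for each member in each WT (blue) and LOF/LOF (red) embryo; the line and band are the median, 0.75, and quartiles of all tested transcripts in WT. The glycolytic enzymes sit above the median, Higd1a is the highest member and Egln1 the lowest, and the genotypes overlap for nearly every gene.

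Families with several isoforms were compared by the share of 1 isoform in the counts per kilobase of the listed members of its family, 9 shares in each kind of library. With 3 against 3 embryos the two-sided exact permutation test cannot go below p = 0.1, and after Benjamini-Hochberg adjustment no share passed. In RNA, 5 of 9 shares reached p = 0.1 (adjusted p = 0.18, exact permutation test), with no overlap between the groups. Without a genotype difference each share would separate in this way with probability 0.1, and families outside the members were not compared. The 5 are not separate results. Slc16a1 and Egln1, lower in RNA, enter the Slc16a3 and Egln3 shares, and the Pfkp and Pfkm shares have the same denominator. Slc16a3 took 27.4%, 28.5% and 27.7% of the Slc16a1 and Slc16a3 RNA in WT and 36.0%, 28.8% and 37.7% in LOF/LOF embryos. LOF/LOF replicate 2 was barely above WT. Egln3 took 9.98%, 9.96% and 11.5% of the Egln1 and Egln3 RNA in WT and 12.7%, 13.2% and 13.1% in LOF/LOF embryos, all LOF/LOF embryos being above all WT embryos. Slc2a3 took 65.2% ± 0.514 of the Slc2a1 and Slc2a3 RNA in WT and 62.0% ± 2.53 in LOF/LOF embryos (SD, n = 3 each). The Pfkp share of phosphofructokinase RNA was 3.89% ± 0.250 and 3.50% ± 0.115, and that of Pfkm 7.92% ± 0.0412 and 8.29% ± 0.306. All 5 differences were smaller with some 1 embryo left out, and values are given for the last 3. The Slc2a3 difference of -3.21 percentage points was -1.75 without LOF/LOF replicate 3. The Pfkp difference of -0.39 was -0.25 without WT replicate 1, and the Pfkm difference of 0.38 was 0.21 without LOF/LOF replicate 1.

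In RPF only the Aldoc share reached p = 0.1 (adjusted p = 0.45, exact permutation test), at 2.29% ± 0.154 in WT and 1.65% ± 0.213 in LOF/LOF embryos. Egln3 made up 38.4% ± 6.48 of the RPF of the pair in WT and 44.3% ± 1.53 in LOF/LOF embryos, a larger part than its 10.5% ± 0.882 of the RNA in WT. That RPF difference of 5.96 percentage points was 2.86 without WT replicate 2 and 9.33 without WT replicate 3. Hk2 made up 88.1% ± 0.752 of the Hk1 and Hk2 RPF in WT and 87.0% ± 0.912 in LOF/LOF embryos, so Hk1 was the minor isoform of this pair in both. Ldhb was 1.76% ± 0.204 and 1.75% ± 0.0595 of the Ldha and Ldhb RPF, and Pdk3 70.4% ± 1.23 and 73.1% ± 1.37 of the Pdk1 and Pdk3 RPF.

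**Figure D4:**
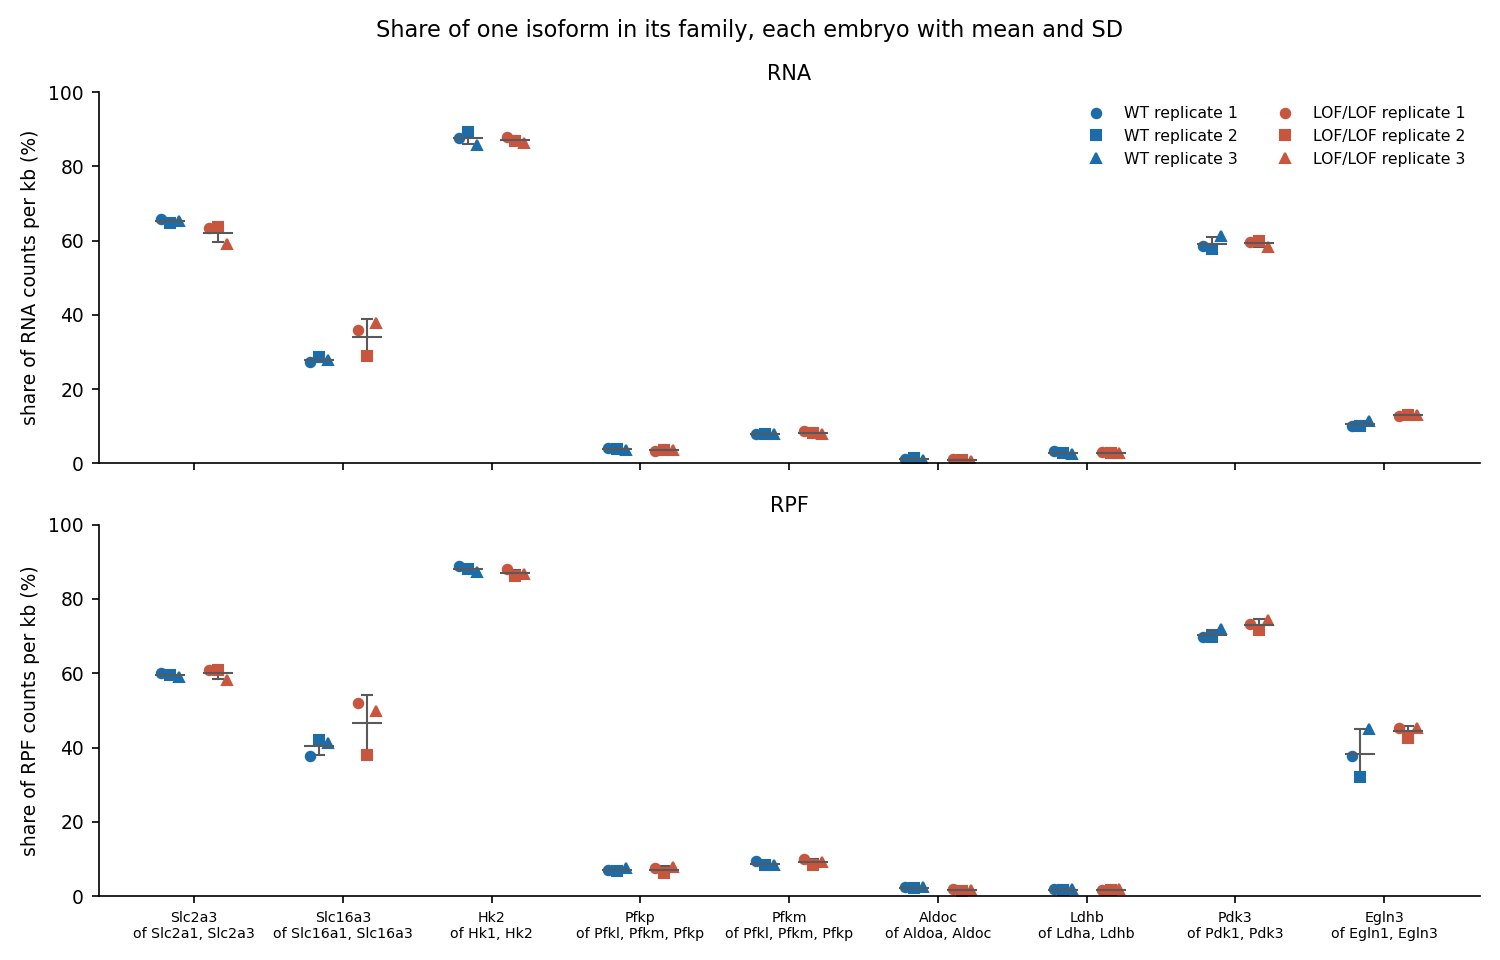
Share of 1 isoform in the counts per kilobase of its family (%), in RNA (top) and RPF (bottom), in each embryo with the mean and SD (n = 3 per genotype). In RNA the Slc16a3 and Egln3 shares are higher in all LOF/LOF embryos, and the Hk2, Ldhb and Pdk3 shares in RNA overlap between genotypes.

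Further genes of the same pathways, 114 listed symbols with 100 tested rows, were counted in the same fits. In RNA 6 were called, all lower, and in RPF 2 were called lower and 1 higher, where 5.02% and 2.19% of all tested transcripts were called. Of 36 further glycolysis and pyruvate genes 4 were called lower in RNA, among them Slc2a2, the glucose transporter of liver and endoderm, at -1.40 (SE 0.28), Fbp2, a gluconeogenic phosphatase, at -1.45 (SE 0.35), and Pgm3, a hexosamine-pathway mutase, at -0.32 (SE 0.069). Slc2a2 is also on the visceral endoderm list. Its RNA put the 6 embryos in the order of that list's sum, which is partly built in because Slc2a2 is part of the sum. Pgam2, the muscle phosphoglycerate mutase, was the gene called higher, in RPF, at 0.60 (SE 0.15, edgeR FDR = 0.0901). Of 37 further hypoxia targets 2 were called lower in RNA, the nuclear receptor coactivator Pnrc1 at -0.23 and Tpd52 at -0.43 (edgeR FDR = 0.0509 and 0.0474). No called gene was among 10 pentose phosphate genes or 17 further genes of the HIF pathway.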

How the data were processed

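The authors deposited 1 table of raw counts per transcript for 12 libraries. By their methods, reads were trimmed, reads of rRNA, tRNA and snRNA were removed with bowtie2, the rest were aligned to a GRCm38 transcriptome with 1 GENCODE VM20 transcript per gene, and PCR duplicates were removed by molecular identifier. RPF reads with the A site in the coding sequence, without its first and last codons, were counted, and RNA reads over the whole transcript. RNA counts therefore include untranslated regions, and transcripts other than the chosen model are not represented. How reads matching several transcripts were assigned is not given in the sources used here.

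From these counts, transcripts above 0.75 CPM in at least 3 RPF libraries were kept, RPF and RNA were normalised apart by TMM, and edgeR 4.0.16 (R 4.3.3) quasi-likelihood tests compared genotypes, with Benjamini-Hochberg adjustment over all 12576 transcripts and an FDR threshold of 0.1. Filter, normalisation and threshold follow the study, whose methods name voom, limma and sva without their design. Translation efficiency was the genotype by library interaction. Alternatives were DESeq2 1.42.0, limma-voom 3.58.1 with and without sva 3.50.0, other scaling and filters, a Y-linked covariate, a replicate block and each embryo left out. The 3 edgeR tests were tested on simulated counts of 12576 transcripts, 200 of them changed. At log2 changes of 1 and 0.5 the RPF test called 80% and 46%, the RNA test 89% and 67%, and the translation efficiency test 74% and 36%. The same tests called 14, 21 and 16 unchanged transcripts. Smaller changes were not simulated, and each library was drawn by itself, without a shared lysate or a sex difference.

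The members and lists were chosen with earlier results of these data known. All members are named, with values in every embryo for those past FDR 0.1 or an unadjusted p of 0.05, and for Slc2a1, Hk2, Gapdh, Pkm, Ldha, Hif1a and Vegfa. Further pathway genes are named where they passed FDR 0.1, except 1 that is counted but not reported here.

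RPF and RNA libraries of 1 embryo share a lysate, and their deviations from the group means correlated at 0.19 to 0.40 across transcripts. Equal replicate numbers in WT and LOF/LOF belong to different embryos. The study took its embryos from several litters, but which embryo came from which litter is not given in the sources used here. Members with few RPF counts, such as Ankrd37, Egln3, Mxi1 and Vegfa, are limited by counting error as well as by the number of embryos.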

Additional observations from a re-analysis of the deposited data

How the results depend on the processing

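Over 14 alternatives the RNA log2 fold changes of Slc16a1, Egln1, Bnip3 and Ero1l kept their direction, and the calls held in 10, 3, 5 and 9 of them. The 0 members called in RPF became 1 (Slc16a1) with DESeq2, with no filter on low counts and with the replicate block, 6 with limma-voom and surrogate variables, and 0 to 5 with 1 embryo left out. The 4 called in RNA became 5 with DESeq2, which lost Egln1 and gained Slc2a3 (lower) and Pfkfb3 (higher), stayed 4 with no filter, where Pfkfb3 (higher) took the place of Egln1, and became 2 with surrogate variables, 0 with the Y-linked covariate and 0 to 3 with 1 embryo left out, being 0 without WT replicate 1 or WT replicate 2. The 1 on the glycolysis side became 3 with DESeq2, 2 with no filter, 0 with the Y-linked covariate and 0 to 2 with 1 embryo left out, and the 3 on the hypoxia side became 1 with surrogate variables, 0 with the Y-linked covariate and 0 to 2 with 1 embryo left out. The cause was not tested. In RNA the share of all tested transcripts called was 4.92% with DESeq2, 3.41% with no filter, 4.69% with surrogate variables, 4.2% with the replicate block and 1.1% to 4.72% with 1 embryo left out, against 5.02%. In RPF it was 1.79% with no filter, 2.49% with the replicate block and 0.0318% to 11.5% with 1 embryo left out, against 2.19%. With the Y-linked covariate the Egln1 value in RPF turned to 0.0567, and 22 transcripts in all were called in RPF and 39 in RNA. No member was called in translation efficiency under any alternative, including the replicate block by embryo.

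Equal numbers in WT and LOF/LOF do not pair embryos (correlations -0.085 to 0.017 in RPF and -0.10 to 0.082 in RNA), and the replicate block called 3 members in RNA. With 1 embryo left out, share differences in percentage points changed sign for Slc2a3 in RPF (-0.1152 to 1.2488), Hk2 in RNA (-1.5202 to 0.2321), Pfkp in RPF (-0.2351 to 0.5890), Ldhb in RPF (-0.1349 to 0.0479) and RNA (-0.2192 to 0.1654) and Pdk3 in RNA (-0.7179 to 1.1159), where p cannot go below 0.2 in an exact permutation test. Of values with an unadjusted p of at least 0.05, 22 of 30 in RPF, 11 of 26 in RNA and 25 of 35 in translation efficiency changed sign in some alternative.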
